A study of Arabidopsis thaliana with 12 samples.

Results

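UDP-glucosyltransferases (UGTs) of plants move a sugar, most often glucose from UDP-glucose, onto small molecules such as hormones, flavonoids, lignin precursors, glucosinolate precursors and foreign compounds. The sugar usually makes the acceptor more soluble and less active, and prepares it for storage in the vacuole or for export. A UGT name gives the family number, a subfamily letter and the gene, so that UGT72E1 and UGT72E2 are close relatives.

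The genes described here were those whose symbol began with UGT followed by a digit, on probe sets annotated to 1 gene, with UGT76C2 left out. This gave 46 genes, each with 1 probe set, of the 13356 genes that had a probe set annotated to them alone among the 22746 probe sets analysed. None of the 46 probe sets carried the suffix by which the array maker marks sets shared between transcripts. Signals were read on one-colour Affymetrix ATH1 arrays hybridised with root RNA of 10-day-old Arabidopsis thaliana (Columbia) of 2 genotypes, wild type and chl1-5, a mutant line of the nitrate transporter gene CHL1. Each genotype was sampled before nitrate (T0) and after 30 min (0.5 h, T0.5) in 25 mM KNO3, with 3 arrays in each of the 4 groups, 12 in all. Nitrogen was supplied to all plants as 12.5 mM ammonium succinate alone, with 0.5% sucrose, and before sampling they spent 3 h in that medium at pH 5.5 and were washed. Only T0.5 plants were moved on, to a medium with KNO3 in place of ammonium succinate, so the step from T0 to T0.5 also holds the loss of ammonium and a transfer. Each replicate number marked an independent experiment, in which both genotypes shared a mesh and about 900 seedlings from 9 vessels were pooled.

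As a check of the tissue, 2 of the 12 root genes listed had a named probe set, and both, the root hair expansin genes EXPA7 and EXPA18, were bright on all 12 arrays, with signals from 627 to 1410 and from 646 to 1164. Both fell from T0 to T0.5 on average over the genotypes, by 0.76 and 0.40 on the log2 scale (adjusted p = 0.00124 and 0.0128), and the part of this in the results below was not tested. In whole roots, fewer cells of a type and less RNA per cell cannot be told apart. Of the 10 photosynthesis genes listed for shoot tissue 2 were measured. PRK was dim on all 12 arrays, with signals of at most 51.5, and RCA was bright on all, from 539 to 698. The mutated gene CHL1 was not among the named probe sets and was not analysed here. The 3'/5' ratio of the GAPDH control probe sets, a sign of RNA quality, lay between 0.86 and 1.38 over the arrays. It was 0.86 to 1.14 at T0 and 1.03 to 1.38 at T0.5 in wild type, and 0.97 to 1.24 and 1.19 to 1.23 in chl1-5. The ubiquitin ratio was 1.68 to 2.24 over the arrays, and the actin ratio 9.72 to 18.42, highest on the chl1-5 T0 array of replicate 3. The part of these ratios in the results was not tested.

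A probe set was taken as bright enough to read, and tested, when its signal reached the 40th percentile of its array on at least 3 arrays, a level between 98.3 and 111.2. Of the 46 UGT genes 25 (54.3%) did, beside 57.3% of the probe sets with 1 gene and 62.8% of all probe sets. On all 12 arrays 20 of the 25 did so. Another 19 UGT genes reached it on no array, and UGT85A4 and UGT85A7 on 1 array each. The number read was close in all groups, with 23 UGT genes bright on all 3 arrays of wild type at T0, 21 of wild type at T0.5, 22 of chl1-5 at T0 and 23 of chl1-5 at T0.5. Just inside the limit were UGT74F1 on 7 arrays (signals 39.1 to 138), UGT88A1 on 8 (80.2 to 147.2) and UGT76C1 on 10 (82.7 to 160.7). Just outside were UGT85A4 (58.0 to 149.6) and UGT85A7 (34.8 to 115.5).

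**Figure D1:**
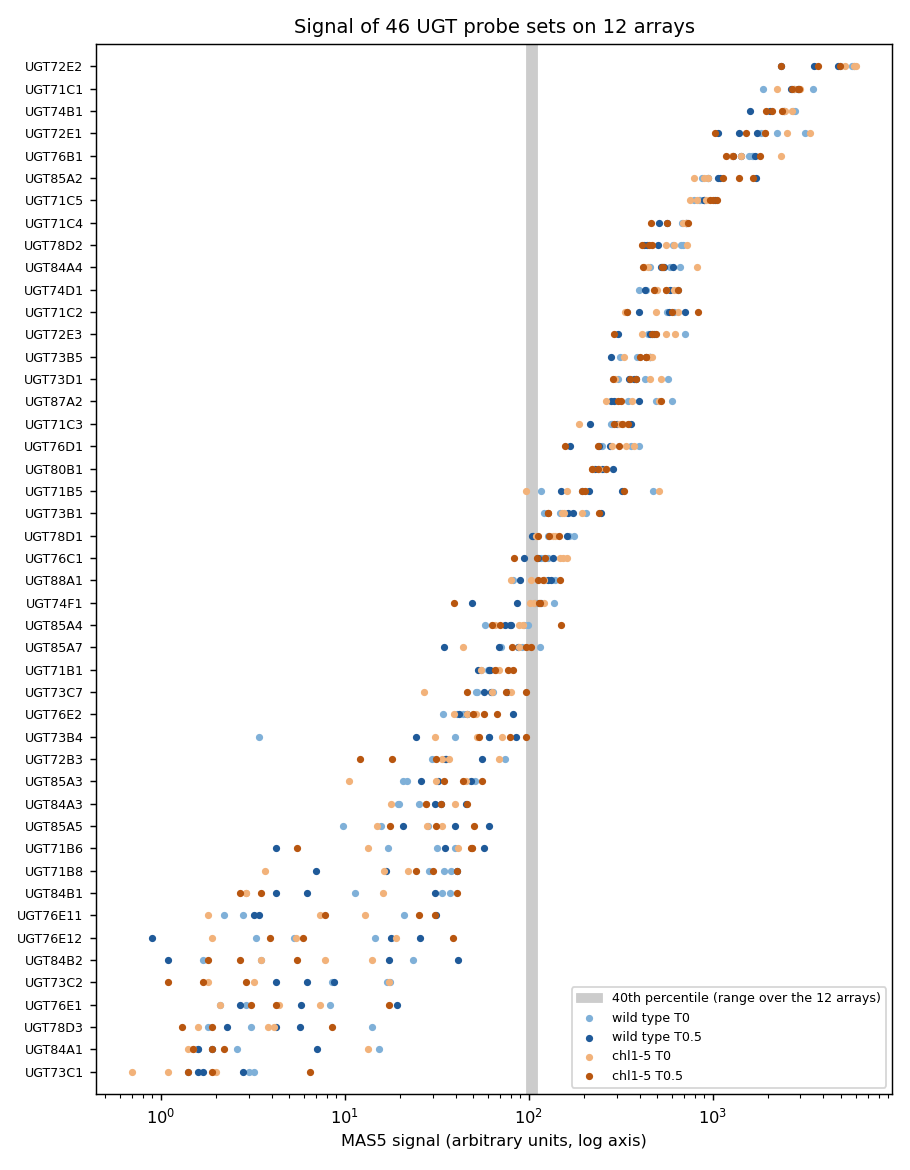
MAS5 signal (log axis, arbitrary units) of the 46 UGT probe sets on the 12 arrays, 1 point per array, coloured by genotype and time, with genes ordered by mean log2 signal. The grey band is the range of the 40th percentile over the arrays (98.3 to 111.2), and 19 genes lie wholly below their arrays' percentile. Signals of different probe sets do not rank transcripts, since probes differ in how well they bind.

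By known role, all 3 UGT72E genes of the monolignol branch could be read, as could all 4 genes for salicylate and benzoates (UGT74F1, UGT76B1, UGT76D1 and UGT71C3) and all 5 genes of the UGT71C subfamily. The glucosinolate enzyme UGT74B1 and the steryl glucoside enzyme UGT80B1 could be read as well. Of the 3 auxin genes measured only UGT74D1 was bright, and of the 2 cytokinin genes only UGT76C1. None of the 4 UGT76E, 3 UGT73C and 2 UGT84B genes measured reached the limit on at least 3 arrays. For all 21 dim genes the means over 12 arrays lay between 2.3 and 84.4, so changes that stayed below the limit could not be read here. None of the 21 reached the limit on more than 1 array.

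UGT genes often lie side by side, and 25 of the 46 belonged to runs of neighbouring UGT loci in the TAIR10.1 gene order. Of the 9 runs with at least 2 of the 46, 4 mixed read and dim genes, 3 were dim throughout and 2 were read throughout. In the run AT1G22340 to AT1G22400, UGT85A2 was bright on all arrays (795 to 1721) while its neighbours UGT85A3 and UGT85A5 stayed at or below 55.6 and 61.1. In the run AT4G15480 to AT4G15500, UGT84A4, an enzyme of hydroxycinnamate glucose esters, was bright on all arrays (418 to 824) and its neighbours UGT84A1 and UGT84A3 on none (at most 15.3 and 46.4). The 3 genes from AT1G07240 to AT1G07260, UGT71C5, UGT71C4 and UGT71C3, were bright throughout.

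The first question was which UGT genes changed within 30 min of nitrate. Over both genotypes together, 4 of the 25 UGT genes tested fell and 1 rose. The falls were those of UGT72E1 (1.74-fold) and UGT72E2 (1.61-fold), which glucosylate lignin precursors, of the flavonoid 3-O-glucosyltransferase UGT78D2 (1.43-fold), and of UGT74B1 (1.26-fold), the S-glucosyltransferase of glucosinolate synthesis. UGT85A2 rose 1.47-fold. None of the 25 UGT genes tested changed 2-fold or more in this mean response, beside 3.16% of all probe sets tested.

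These 5 of 25 genes were called in the mean response of both genotypes, 6 arrays against 6, by limma at a Benjamini-Hochberg adjusted p under 0.05 over all 14291 probe sets tested. Of all probe sets 14% were called, 6.42% higher and 7.56% lower, against 1 (4%) and 4 (16%) of the UGT genes. The median change of the 25 was -0.17 on the log2 scale, with 11 genes above 0 and 14 below, and that of all probe sets was -0.08. Scaling each array to its median left 12 above 0 and 13 below, with 2 UGT genes called higher and 3 lower, and with 1058 of 1682 calls over all probe sets higher in place of 917 of 1998. With the replicate number as a block, 9 UGT genes were called, among them the same 5. Of these 2 were higher and 7 lower, beside 24.2% of all probe sets called, 9.31% higher and 14.8% lower. Without the arrays of replicate number 2 none of the 25 was called by limma (7 at an unadjusted p under 0.05, and 501 probe sets called in all), and without those of number 3 the calls were UGT72E1 and UGT78D2.

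UGT78D2 (AT5G17050) adds glucose to the 3-position of flavonols and anthocyanidins. Its signals were 688, 672 and 608 on the wild-type T0 arrays of replicates 1, 2 and 3 and 503, 422 and 438.5 on the T0.5 arrays. In chl1-5 they were 614.5, 554 and 726 at T0 and 470, 412 and 450 at T0.5. Every T0.5 signal lay below every T0 signal, in both genotypes.

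Without the replicate block, UGT78D2 was the only UGT gene called in each genotype alone. It fell by 0.53 in wild type (log2 scale, SE 0.12, adjusted p = 0.0253, 3 arrays in each group) and by 0.50 in chl1-5 (SE 0.12, adjusted p = 0.0445). Of all probe sets 5.58% were called in wild type (2.14% lower) and 3.86% in chl1-5 (1.15% lower), against 1 of 25 UGT genes (4%) in each. With the replicate block 5 UGT genes were called in wild type, beside 11.8% of all probe sets, and 4 in chl1-5, beside 9.9%. Called in both genotypes with the block were UGT72E1, UGT72E2 and UGT78D2. The median of all probe sets was itself -0.09 in wild type, and scaling each array to its median moved it by 0.10, to 0.01, with 609 of 792 calls higher in place of 491 of 797. Relative to all probe sets, UGT78D2 stood at -0.44 in wild type and -0.44 in chl1-5. The call was lost under median scaling in both genotypes (adjusted p = 0.0900 and 0.0773), and was kept under 14 of 22 alternatives in wild type and 6 of 22 in chl1-5. The mean response (log2 -0.52, SE 0.09, adjusted p = 0.00195) was kept under all alternatives run but that without replicate number 2 (adjusted p = 0.0552).

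Other flavonoid genes were few on these arrays. UGT78D1, which adds rhamnose at the flavonol 3-position, stood at -0.35 in wild type and 0.02 in chl1-5 (SE 0.21 each), with signals between 104.1 and 175.2. UGT78D3, an arabinosyltransferase for flavonols, was dim. Of the 17 other flavonoid genes listed 3 had a named probe set, and DFR and 5MAT of these were dim. The third, the chalcone isomerase-like gene CHIL, stood at -0.45 in the mean response (SE 0.15, adjusted p = 0.0694, and 0.0108 when blocked by replicate number).

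The UGT72E enzymes glucosylate monolignols and their aldehydes, the building blocks of lignin. UGT72E1 (AT3G50740), which takes the aldehydes, had signals of 3161, 2240 and 1822 at T0 in wild type and 1738, 1381 and 1074 at T0.5. In chl1-5 the values were 3372, 2526 and 1935 before and 1916, 1514 and 1035 after nitrate. T0 and T0.5 signals did not overlap within a genotype, and replicate 1 gave the highest and replicate 3 the lowest signal in all 4 groups.

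For UGT72E1 the response was nearly the same in each experiment. Paired by replicate number, the log2 change lay between -0.90 and -0.70 in all 6 pairs. Without the block it stood at -0.77 in wild type (SE 0.28, adjusted p = 0.137) and -0.82 in chl1-5 (SE 0.28, adjusted p = 0.141), and only the mean response passed (log2 -0.80, SE 0.19, adjusted p = 0.0174). Blocked by replicate number, each response had an SE of 0.08, and UGT72E1 fell in wild type (adjusted p = 4.93e-05) and in chl1-5 (adjusted p = 5.49e-05). Leaving out replicate number 2 raised the adjusted p of the mean response without the block to 0.206, with the change at -0.84.

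UGT72E2 (AT5G66690), which glucosylates coniferyl and sinapyl alcohol, gave signals of 5894, 5689 and 4933 in wild type at T0 and of 4803, 3532 and 2352 at T0.5. In chl1-5 its signals went from 5871, 5254 and 6029 to 4931, 3752 and 2351. All 6 pairs were lower at T0.5, but unequally, by 0.25 to 1.36 on the log2 scale, with the largest falls in replicate 3 of both genotypes.

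The mean response of UGT72E2 was -0.69 (SE 0.19, adjusted p = 0.0274). It stood at -0.68 in wild type and -0.70 in chl1-5 (SE 0.26 each, adjusted p = 0.173 and 0.191), and passed with the replicate block (adjusted p = 0.0285 and 0.0301). Without replicate number 3 the mean response was -0.43 (adjusted p = 0.101), and without number 2 it was -0.74 (adjusted p = 0.228). Leaving out single arrays also lost the call, with adjusted p between 0.0513 and 0.0613 in 7 of 12 cases.

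UGT72E3, which takes sinapyl alcohol, was not called, with a mean response of -0.37 (SE 0.18, adjusted p = 0.198, 0.0963 with the block). Its signals were 466, 703 and 443 at T0 and 482, 455 and 306 at T0.5 in wild type, and 415, 558 and 626 against 491, 466.5 and 291 in chl1-5. In both genotypes replicate 1 was higher and replicates 2 and 3 were lower at T0.5.

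**Figure D2:**
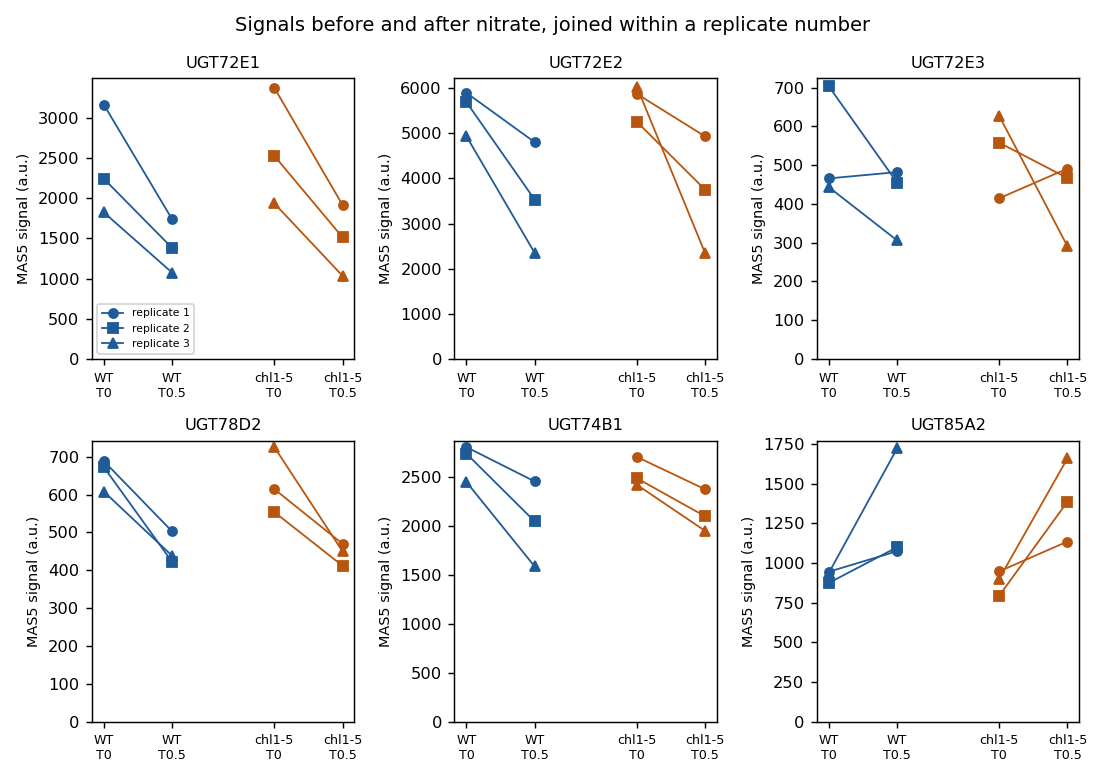
MAS5 signal (linear axis from 0, arbitrary units) of 6 UGT genes at T0 and T0.5 in wild type (WT, blue) and chl1-5 (orange), with lines joining arrays of 1 replicate number. The 6 lines of UGT72E1 drop by a like factor (log2 change -0.90 to -0.70), those of UGT72E2 by unequal ones (-1.36 to -0.25), and every line of UGT85A2 goes up.

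Among other genes of phenylpropanoid synthesis, 2 of the 18 listed had a named probe set. HCT, the hydroxycinnamoyl transferase on the way to monolignols, fell in wild type (log2 -0.40, SE 0.11, adjusted p = 0.0463) and in the mean response (log2 -0.34, SE 0.07, adjusted p = 0.00914), and stood at -0.29 in chl1-5 (SE 0.11, adjusted p = 0.180). REF1, an aldehyde dehydrogenase that makes ferulate and sinapate, stood at -0.07 (SE 0.08). UGT71C1, a glucosyltransferase for phenolic compounds, was bright on all arrays (1886 to 3494) and stood at 0.08 (SE 0.13, adjusted p = 0.734), and UGT84A4 stood at -0.07 (SE 0.16). Of the 5 tested UGT genes for phenylpropanoids 2 fell and none rose, where 7.56% of all probe sets were called lower and 6.42% higher, and the group itself was not tested.

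UGT74B1 (AT1G24100) had signals of 2802, 2735 and 2446 at T0 and 2452, 2045 and 1585 at T0.5 in wild type, and 2702, 2484 and 2418 against 2372, 2097 and 1948 in chl1-5. The groups met in wild type, where the lowest T0 signal lay just below the highest T0.5 signal, and did not overlap in chl1-5. All 6 pairs were lower at T0.5, by 0.19 to 0.63. Its mean response (log2 -0.33, SE 0.10, adjusted p = 0.0484) was the closest to the threshold of the 5 and was lost under 14 of 21 alternatives, among them median scaling (log2 -0.26, adjusted p = 0.105). With the replicate block it passed in the mean (adjusted p = 0.00403) and in wild type (adjusted p = 0.0143).

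Among the 25 UGT genes tested, UGT85A2 (AT1G22360) was the only gene called higher in the mean response of the main fit, without the block. UGT71C5 was called higher as well with the replicate block, and under median scaling or quantile normalization. Its signals were 945, 874.5 and 938 at T0 and 1074, 1099 and 1721 at T0.5 in wild type, and 947, 795 and 901 against 1135, 1386 and 1659 in chl1-5. Every T0.5 signal lay above every T0 signal. The rise differed between experiments, from 0.18 to 0.88 on the log2 scale over the 6 pairs, with the largest in replicate 3 of both genotypes.

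On average UGT85A2 rose by 0.56 (SE 0.13, adjusted p = 0.0127). In wild type it stood at 0.46 (SE 0.18, adjusted p = 0.180) and in chl1-5 at 0.65 (adjusted p = 0.0749), where it passed with the block (adjusted p = 0.0151). Without replicate number 3 the mean response was 0.39 (adjusted p = 0.0779), and without number 2 it was 0.55 (adjusted p = 0.170).

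**Figure D3:**
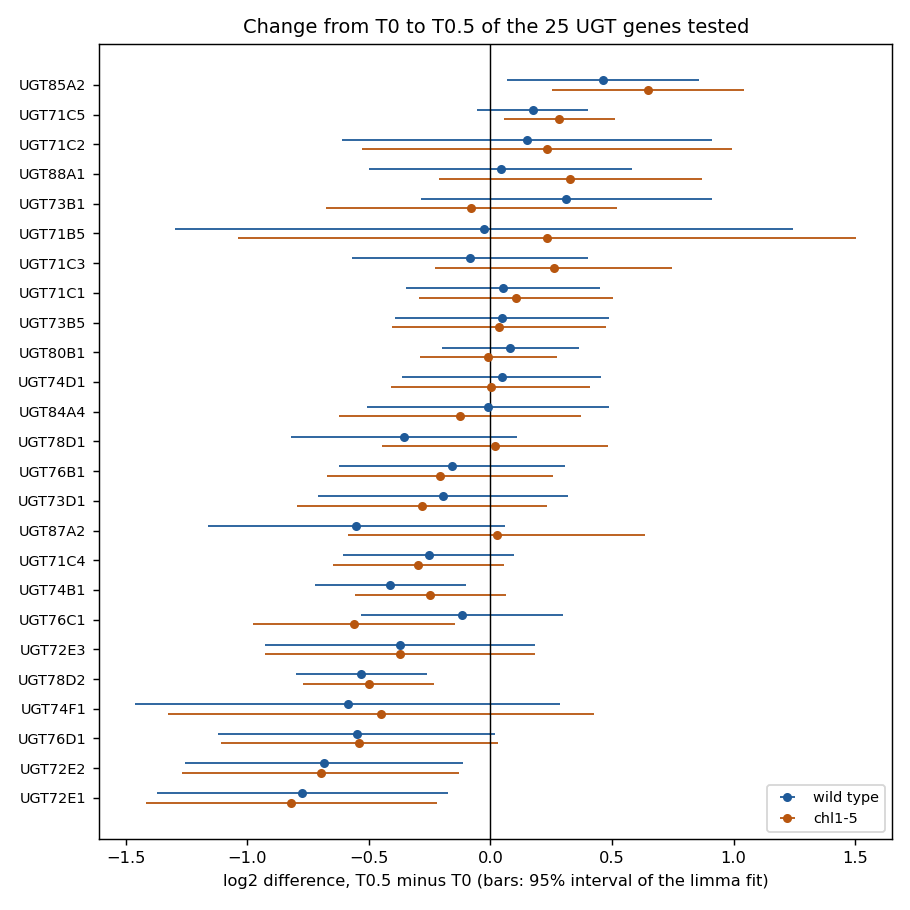
Change from T0 to T0.5 (log2 difference) of the 25 UGT genes tested in wild type (blue) and chl1-5 (orange), with the 95% interval of the limma fit as bars, ordered by the mean of both. UGT72E1 is lowest (-0.77 and -0.82) and UGT85A2 highest (0.46 and 0.65). Both intervals of every gene overlap in this fit without the replicate block, which is no test of their difference. With the block the SE of UGT87A2 (-0.55 in wild type and 0.03 in chl1-5) was 0.12 each in place of 0.28.

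The other UGT genes tested, hormone and benzoate enzymes among them, were not called in the mean response without the block. UGT71C5, a glucosyltransferase for abscisic acid, was higher at T0.5 in all 6 pairs, with signals of 753 to 914 on the T0 arrays and 892 to 1059 on the T0.5 arrays, and a mean response of 0.23 (SE 0.07, adjusted p = 0.0606, 0.0376 with the replicate block). UGT71C2 was also higher in all 6 pairs, by 0.03 to 0.36, with a mean response of 0.19 (SE 0.25, adjusted p = 0.659, 0.0933 with the block). UGT71C4, next to UGT71C5 in the genome, stood at -0.28 (SE 0.11, adjusted p = 0.133, 0.0495 with the block) and was lower in 5 of 6 pairs.

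None of the 4 genes measured for salicylate and benzoates was called in the mean response, with 3 below 0 and 1 above. Of all probe sets 14% were called and 33.4% lay above 0. UGT76D1, which glucosylates dihydroxybenzoates, was lower in all 6 pairs, by 0.04 to 1.24, and stood at -0.54 in the mean response (SE 0.19, adjusted p = 0.0718, 0.0236 with the block). The salicylate enzyme UGT74F1 stood at -0.52 (SE 0.28, adjusted p = 0.255), from signals near the limit of reading. UGT76B1, a glucosyltransferase for isoleucic acid and salicylate, stood at -0.18 (SE 0.15). Its signal of 2342 on the chl1-5 T0 array of replicate 3 was the highest of its 12. For auxin, UGT74D1 stood at 0.02 (SE 0.13).

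In all, 5 of the 25 UGT genes were lower in all 6 pairs of arrays and 3 were higher in all 6. Over all probe sets tested the shares were 15.4% and 8.23%, against 20% and 12% of the UGT genes. Among the glutathione S-transferase genes of the GSTU and GSTF classes, another detoxification family, 9 of 12 were tested and 1 fell in the mean response, GSTU28 (log2 -0.48, SE 0.10, adjusted p = 0.00792), with a list median of -0.17. With the replicate block GSTU27 (log2 0.28, adjusted p = 0.0876 without the block and 0.0493 with it) and GSTU22 (log2 0.19, 0.567 and 0.0371) were called as well, both higher. The only measured gene of 24 listed for UDP-sugar supply, USP, stood at -0.18 (SE 0.08, adjusted p = 0.135), and both measured cytokinin genes of 21 listed, ARR15 and ARR16, were dim.

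The second question was whether the nitrate responses depended on CHL1. For none of the 25 UGT genes did the response differ between genotypes by limma's test of the difference (none at an unadjusted p under 0.05, and UGT87A2 with the replicate block), beside 0.035% of all probe sets called and 1.94% at an unadjusted p under 0.05. The difference, chl1-5 response minus wild-type response, was 0.03 for UGT78D2 (95% interval -0.35 to 0.41), -0.04 for UGT72E1 (-0.89 to 0.80), -0.01 for UGT72E2 (-0.82 to 0.79), 0.16 for UGT74B1 (-0.28 to 0.60) and 0.18 for UGT85A2 (-0.37 to 0.74). For 16 of the 25 genes the interval lay inside a 2-fold change either way, and for 9 a larger difference was not excluded by it. These intervals are of the fit without the block, which leaves the pairing unused. With the block the SE of the difference was 0.11 in place of 0.39 for UGT72E1 and 0.15 in place of 0.49 for UGT71C2. For UGT88A1 it was 0.34 in place of 0.35.

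The largest difference of responses was that of UGT87A2, 0.58 (SE 0.40, adjusted p = 1.00, 0.942 with the block). UGT87A2, known for an effect on flowering time, went from 601, 490 and 345.5 to 397, 290 and 280.5 in wild type, lower in all 3 pairs (log2 -0.55, adjusted p = 0.313, 0.0130 with the block). In chl1-5 it went from 508, 363 and 263 to 525, 318 and 307, higher in 2 of 3 pairs (log2 0.03). Its mean response was -0.26 (SE 0.20, adjusted p = 0.419, 0.0488 with the block). The cytokinin N-glucosyltransferase UGT76C1 had the next largest, -0.44 (SE 0.27), with signals of 117, 127 and 121.5 against 112, 135 and 94.0 in wild type and 161, 153 and 147 against 111, 122.7 and 82.7 in chl1-5. Its chl1-5 groups did not overlap, and its response there was -0.56 (adjusted p = 0.147, 0.0609 with the block). Over both genotypes UGT76C1 stood at -0.34 (SE 0.13, adjusted p = 0.118, 0.0616 with the block), lower in 5 of 6 pairs. UGT73B1, UGT78D1 and UGT71C3 differed by -0.39, 0.37 and 0.34 (SE 0.30 to 0.39).

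Between genotypes at one time the UGT genes stood close together. None of the 25 was called by limma at T0, at T0.5 or in the mean of both times, none had an unadjusted p under 0.05 in these 3 comparisons without the block, and 0.028%, 0.224% and 0.07% of all probe sets were called. With the replicate block 1 gene at T0 did, UGT87A2 (log2 -0.36, SE 0.12, adjusted p = 1.00), lower in chl1-5 in all 3 pairs, by 0.24 to 0.43. At T0.5 UGT87A2 was higher in chl1-5 in all 3 pairs (log2 0.22). At T0 UGT78D1, UGT74B1, UGT74F1 and UGT88A1 were also lower in all 3 pairs, and UGT72E1, UGT73B5 and UGT76C1 were higher in all 3. The share of all probe sets with such agreement was not counted. The estimates lay between -0.36 and 0.33 at T0, between -0.28 and 0.22 at T0.5, and between -0.12 and 0.19 in the mean of both times, where every 95% interval lay inside a 2-fold change. At each time the interval of 24 genes did, the exception being UGT71B5. These intervals are of the fit without the block. The SE of UGT71B5 at each time was 0.58 in that fit and 0.25 with the block. UGT76C1, just inside the limit of reading, stood at 0.33 at T0 (SE 0.19, limma's unadjusted p = 0.106) and at -0.11 at T0.5. Its chl1-5 signals at T0 lay above those of wild type. How often such a separation occurred over all probe sets was not counted. UGT74D1 had the largest mean difference, 0.19 (SE 0.13, adjusted p = 1.00). UGT73B5 stood at 0.13, UGT84A4 at -0.12 and UGT78D1 at -0.10 in the mean of both times.

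**Figure D4:**
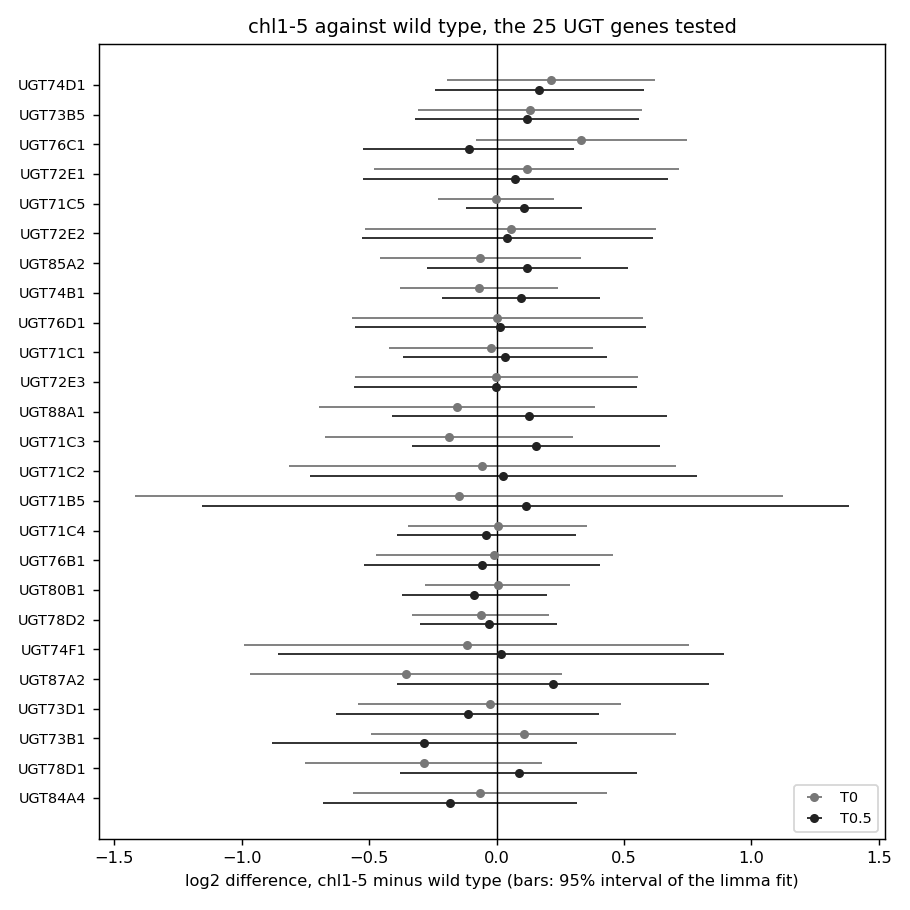
Difference of chl1-5 from wild type (log2) of the 25 UGT genes tested at T0 (grey) and T0.5 (black), with the 95% interval of the limma fit as bars. All estimates lie between -0.36 and 0.33 and every interval, of the fit without the replicate block, holds 0. With the block UGT87A2 at T0 (log2 -0.36, SE 0.12) had an unadjusted p under 0.05 by limma, and no gene was called.

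UGT signals also differed between the 3 experiments. After the group means were removed, the means of the 3 replicate numbers, 4 arrays each, spanned a median of 0.32 on the log2 scale (1.25-fold) over the 25 UGT genes and 0.23 (1.17-fold) over all probe sets tested. For 16 of the 25 genes (64%, beside 63.7% of all probe sets) this span exceeded the mean nitrate response. The widest was that of UGT71B5, 2.96-fold, whose T0 signals were 194, 117 and 474 in wild type and 160.5, 96.8 and 508 in chl1-5 for replicates 1, 2 and 3. Replicate 2 was the lowest and replicate 3 the highest array of each of its 4 groups. UGT71C2 spanned 1.98-fold, with replicate 1 lowest in every group, and UGT72E1 1.73-fold, beside a response of 1.74-fold. UGT71C5 (1.05-fold) and UGT80B1 (1.07-fold) varied least. What set the experiments apart was not tested.

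**Figure D5:**
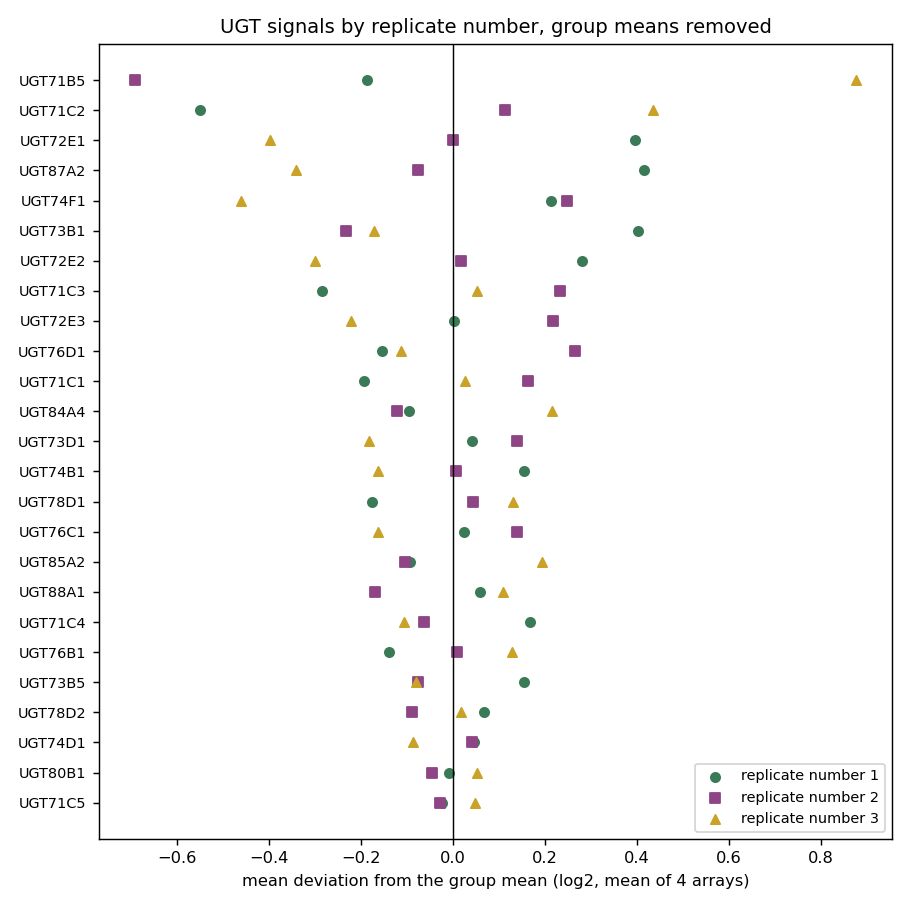
Mean deviation from the group mean (log2, mean of 4 arrays) of each of the 25 UGT genes for replicate numbers 1 (circles), 2 (squares) and 3 (triangles), ordered by span. UGT71B5 spans 1.57 (-0.69 to 0.88), UGT71C2 0.99 and UGT71C5 0.08.

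Over the 12 arrays, the probe sets with 1 gene most like UGT72E1 were those of SGP2 (Pearson's r = 0.97), AT5G67430 (r = 0.97) and AT2G28710 (r = 0.97), among 7743 compared. Those most like UGT72E2 were AT4G22250 (r = 0.98), AT2G44310 (r = 0.97) and AT1G67340 (r = 0.96). Both UGT72E genes correlated with each other at r = 0.89. These values describe arrays that share their experiments and times.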

How the data were processed

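The authors deposited intensities on a linear scale, 1 MAS5 signal per probe set, per the submitters' processing notes (version not given in the sources used here), from 6 µg of RNA per array per the labels. The arrays came scaled, with means of 499.4 to 500.6 once the top and bottom 2% of signals were dropped. Array medians were 175.9 to 195.4, detection calls were not used here, and the number of arrays limits the precision. Of 22810 probe sets 64 controls were left out. Of the rest 13513 had 1 gene in the platform annotation, 503 several (unnamed here) and 8730 were not listed there. Names were updated by gene number to TAIR10.1.

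A floor of 0.1 was applied to the signals before taking log2. One limma model (limma 3.58.1, R 4.3.3; eBayes with trend) fitted 4 group means over 12 arrays and 14291 probe sets, with two-sided tests and Benjamini-Hochberg adjustment over all of them. It was run on simulated data with independent arrays. These lack the pairing by experiment found here, so they do not show how the fit behaves under it. SE and intervals are limma's, of the fit without a replicate block unless stated, and group signals are given per array. Genes named with values were those called in any comparison, the 8 brightest, those with the largest mean responses (8) and genotype differences (5), the 5 with the smallest p for the difference of responses, and runs of at least 3 neighbouring measured genes. UGT71C2, UGT71B5, UGT80B1, UGT88A1 and the dim genes were named after their values were seen. The genes and lists were chosen with earlier results of these data known.

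Replicate numbers from the titles mark independent experiments per the labels. They pair the arrays, since deviations from group means correlated at r = 0.21 to 0.77 over the probe sets tested for each of the 18 same-numbered pairs. The fit with the number as a block is therefore given where it changes a call of a UGT gene, or the mean response of a listed gene. The other alternatives were the floor, the scaling, the filter, the groups fitted and leaving out arrays.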

Additional observations from a re-analysis of the deposited data

How the results depend on the processing

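No call of a UGT gene changed sign under any alternative run. The other genes named were fitted only with and without the block. With a replicate block the count of UGT genes called rose from 1 to 5 in wild type, from 1 to 4 in chl1-5 and from 5 to 9 in the mean response, and it gave no call in the comparisons of genotypes. The count in wild type was 0 under median scaling (6 at an unadjusted p under 0.05), and that in chl1-5 was 0 under median scaling, quantile normalization and a fit of only the groups compared (6 each at an unadjusted p under 0.05) and without a filter on low signals (7). Leaving out 1 array or 1 replicate number gave 0 to 2 calls in wild type, 0 to 2 in chl1-5 and 0 to 6 in the mean response, while calls over all probe sets ran from 177 to 927, 74 to 854 and 501 to 2418. It gave 0 for every comparison of genotypes. The cause of these changes was not tested. The mean responses of UGT72E1 and UGT78D2 were called under 20 of 21 alternatives each, that of UGT85A2 under 19, UGT72E2 under 12 and UGT74B1 under 7. At the 60th percentile 19 UGT genes were bright enough to read. Every UGT gene had 1 probe set, so averaging probe sets changed nothing. Changes in the 21 dim UGT genes that stayed below the limit of reading could not be seen at these signals.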

Other observations

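Other probe sets annotated to UGT genes fell outside the naming rule, and those given here were picked with their values in view. Probe set 266643_s_at, annotated to several genes, rose from signals of 434, 555 and 512 to 781, 861 and 745 in wild type (log2 0.67, SE 0.15, adjusted p = 0.0212) and from 415, 439 and 565 to 664, 895 and 775 in chl1-5 (log2 0.72, SE 0.15, adjusted p = 0.0204). Probe set 253268_s_at, also annotated to several genes, went from 347, 285 and 107 to 1087, 587 and 292 in wild type and from 337.5, 226 and 132 to 870, 467 and 199 in chl1-5. Its T0 and T0.5 signals overlapped in both genotypes, but each of the 6 pairs was higher at T0.5, and its mean response of 1.19 (SE 0.43, adjusted p = 0.0882) passed with the replicate block (adjusted p = 1.05e-05). GT72B1, a monolignol and xenobiotic glucosyltransferase that carries its UGT name only as a synonym, stood at 0.28 in the mean response (SE 0.11, adjusted p = 0.129). The other 2 tested outside the rule lay below 0, SGT at -0.17 (adjusted p = 0.351) and probe set 260379_at, annotated to several genes, at -0.28 (adjusted p = 0.225).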
